A study of Homo sapiens with 24 samples.

Results

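The comparison described here set HK-2 cells given transforming growth factor β1 (TGF-β1) together with BAY 60-2770, written BAY below, against HK-2 cells given the solvents alone. HK-2 is an immortalised human cell line from the proximal tubule of the kidney, and BAY is an activator of soluble guanylate cyclase. The libraries were chosen by their labels, 5 with both agents and 5 with solvent, all in normoxia, which makes 10 of the 24 poly(A) RNA-seq libraries of the series. All cultures were deprived of serum overnight and then treated for 24 h. The combined group received TGF-β1 at 2 ng/mL and BAY, and the solvent group received DMSO, HCl and bovine serum albumin (BSA). The labels give the BAY concentration as 1 mM and the DMSO content as 0.0001%, a pair of values that is hard to reconcile for a compound supplied in DMSO, so the dose is uncertain. Normoxic cells given BAY alone (3 libraries) or TGF-β1 alone (5 libraries) share these conditions and are used here to set each agent beside the combination. The labels call the replicates biological without saying how they were kept apart, and the p-values therefore speak only of the spread among cultures of a single cell line. The series describes a hypoxia experiment and a TGF-β1 experiment, and which of them each solvent library belongs to is not analysed here.

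TGF-β1 binds a pair of receptor kinases that phosphorylate SMAD2 and SMAD3, and the SMAD complex then switches on matrix genes and its own inhibitors. In tubular epithelium this signal is known for the loss of junctions and transporters and the gain of mesenchymal and matrix genes. Soluble guanylate cyclase is a dimer that makes cyclic GMP when nitric oxide binds its haem, and activators of this class act on the enzyme when the haem is oxidised or missing. Cyclic GMP acts through its kinases and phosphodiesterases, and it is known in kidney and other organs for opposing fibrosis.

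The 10 libraries held 87391989 to 105571250 estimated counts. Over all groups but BAY alone, libraries fell into 2 subsets that the labels do not name. The first principal component of the deviations from the group means held 56.6% of their variance over 11004 genes. Subset 1 held solvent replicates 1, 2 and 5 and combined replicates 1 and 2. Subset 2 held solvent replicates 3 and 4 and combined replicates 3, 4 and 5. Between 2 libraries of a group, the chi-square of the counts per degree of freedom was 5.42 to 14.8 within a subset. It was 29.2 to 48.2 between subsets. The reported fit has no term for the subsets and treats the 5 libraries of a group as independent, which this clustering puts in doubt. The BAY-alone libraries did not split in this way and were placed in neither subset, so comparisons that use them were not checked against the subsets. Deviations from their own mean cannot place them if all belong to 1 subset. Their TMM scaling factors were 1.083 to 1.088, beside 1.086 and 1.088 in solvent replicates 3 and 4. Solvent replicates 1, 2 and 5 had 1.022 to 1.030. A subset difference within the BAY-alone comparison and the interaction cannot be told apart from an effect of BAY and was not tested. Among markers of the proximal tubule, KRT8, KRT18, PAX8 and CDH6 were read in quantity, whereas HNF4A was below 0.1 counts per 1000000 counts (CPM) in both groups. LRP2, the megalin gene, had a mean of 0.126 CPM with solvent and 0.0175 CPM with both agents. The summed level of 9 fibroblast markers was 110.5 to 134.9 CPM in solvent libraries and 263.8 to 284.9 CPM in combined libraries, with COL1A2, COL3A1, PDGFRA and POSTN below 0.1 CPM in both. Of 9 immune markers, PTPRC, CD3E, LYZ and NKG7 were below 0.1 CPM in both groups. The sum of the 9, most of it CD74 and CD68, was 374.7 to 398.8 CPM with solvent and 189.8 to 220.7 CPM with both agents. The part of such cells in the results was not tested. Transcripts of the mitochondrial genome took 7.29% ± 0.174 (SD, n = 5) of counts with solvent and 5.34% ± 0.325 (SD, n = 5) with both agents.

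Most of the measured transcriptome differed between the groups. Of 21639 genes tested, 13609 were called at an adjusted p below 0.05 (62.9%), 6622 of them higher with both agents (30.6%) and 6987 lower (32.3%). A change of at least 2-fold was called for 4108 genes (19.0%), 1668 higher (7.71%) and 2440 lower (11.3%). In 11058 genes (51.1%) every library of 1 group lay above every library of the other. Scaling libraries by their totals in place of TMM moved the median of all genes by -0.15 on the log2 scale and the split to 4683 higher and 9226 lower, so that 33.7% in place of 48.7% of the called genes were higher. Against these shares, counts within a gene list are read below, and the median log2 fold change over all genes was -0.02. The comparisons of TGF-β1 alone and of BAY alone use the same solvent libraries as the combination, so their values are given side by side only. TGF-β1 alone changed 13422 genes (62.0%) and BAY alone 8925 (41.2%). BAY added to TGF-β1 changed 6386 genes against TGF-β1 alone (29.5%), 3012 higher (13.9%) and 3374 lower (15.6%).

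IL11 encodes interleukin 11, a cytokine of the IL-6 family that TGF-β1 induces in many stromal and epithelial cells. Its gene lies on the minus strand of chr19:55364389-55370463 (GRCh38, GENCODE 29). With solvent its level was 3.12, 3.00, 2.35, 2.48 and 2.70 CPM in replicates 1 to 5. With both agents it was 1667, 1618, 1521, 1608 and 1474 CPM. The groups were far apart, and each combined library also lay above every library of TGF-β1 alone (290.3 to 337.6 CPM) and of BAY alone (72.1 to 82.0 CPM). The rise was 9.17 ± 0.09 on the log2 scale (SE, n = 5 and 5, adjusted p = 3.65e-22). TGF-β1 alone gave 6.83 and BAY alone 4.80, and the combined change was 2.46 below the sum of these values (SE 0.10, interaction adjusted p = 6.87e-12).

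MMP1 encodes interstitial collagenase, which cuts fibrillar collagens. It lies on the minus strand of chr11:102789920-102798160. Solvent libraries held 4.72, 4.29, 3.14, 3.30 and 4.80 CPM, and combined libraries held 1369, 1370, 1219, 1340 and 1137 CPM. No combined library came near the solvent range, and all lay above the 606.2 to 769.9 CPM of TGF-β1 alone. The log2 change was 8.31 ± 0.13 (SE, adjusted p = 1.27e-18), beside 7.38 with TGF-β1 alone and 0.48 with BAY alone. BAY on top of TGF-β1 raised MMP1 by 0.94 (adjusted p = 7.24e-07), and the interaction of 0.46 did not pass the threshold (adjusted p = 0.0551).

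CHL1 encodes a cell adhesion molecule of the L1 family, best known from neurons. It lies on the plus strand of chr3:196596-409417. Its level was 0.0195, 0.171, 0.130, 0.147 and 0.177 CPM with solvent and 8.60, 9.51, 4.87, 5.13 and 3.56 CPM with both agents. The groups did not overlap, and the 2 combined libraries of subset 1 were the highest. TGF-β1 alone lowered CHL1 (mean 0.0305 CPM) and BAY alone raised it (mean 1.30 CPM), yet the combined mean of 6.33 CPM was above both. The fall with TGF-β1 alone rests on few counts (0.0107 to 0.0649 CPM), and solvent replicate 1 lay within that range. The log2 change against solvent was 5.62 ± 0.40 (SE, adjusted p = 8.62e-10), 6.26 in subset 1 alone and 5.01 in subset 2 alone. It exceeded the sum of the single changes by 4.29 ± 0.67 (SE, interaction adjusted p = 0.000163).

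**Figure D1:**
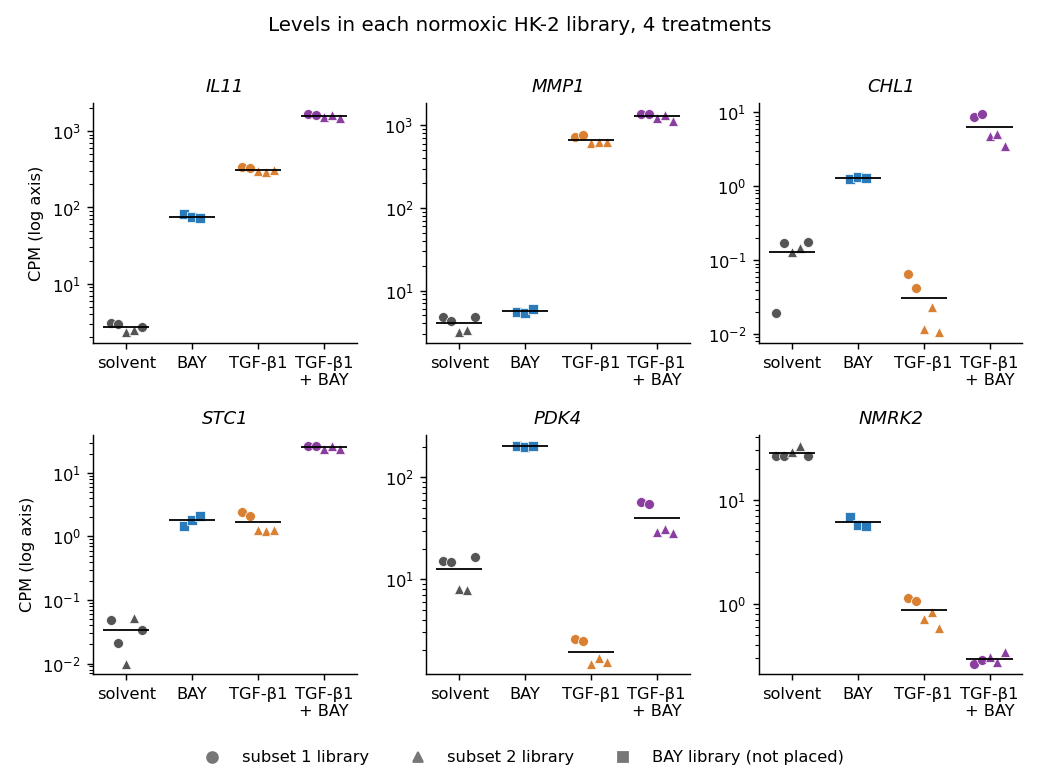
Level of 6 genes in each normoxic library (CPM, log axis), with 5 libraries per group (3 for BAY alone), black lines for group means and marker shapes for the subsets. IL11, MMP1, STC1 and CHL1 were highest with both agents and NMRK2 lowest, while PDK4 with both agents lay between solvent and BAY alone.

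The named genes include the 10 largest rises with at least 5 CPM in either group. Besides IL11 and MMP1, those described here are KANK4, CGB8, CH25H, CHRNA9, STC1, MMP10 and LEFTY2. KANK4, an adaptor of the cell cortex, had no count in any solvent or BAY library. It had 9.76, 9.02, 8.54, 10.1 and 7.69 CPM with both agents and 1.45 to 1.86 CPM with TGF-β1 alone. Set against a floor of 3 counts over the 5 solvent libraries, KANK4 was at least 1305-fold higher, and BAY added 2.47 to its level with TGF-β1 on the log2 scale (adjusted p = 5.96e-09).

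STC1, which encodes the secreted glycoprotein stanniocalcin 1, was near 0 in every solvent library, at 0.0488, 0.0213, 0.0100, 0.0524 and 0.0332 CPM. With both agents it reached 26.9, 26.7, 23.5, 26.6 and 24.0 CPM. BAY alone (mean 1.78 CPM) and TGF-β1 alone (mean 1.66 CPM) gave similar middle levels, and no library of either came near the combined ones. The log2 change was 9.53 ± 0.30 (SE, adjusted p = 6.36e-15), 1.75 less than the sum of the single changes (interaction adjusted p = 0.0077).

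MMP10, stromelysin 2, a protease that cuts matrix proteins and activates collagenases, lies close to MMP1 on chromosome 11. It rose from 0.348 ± 0.0403 to 191 ± 13.8 CPM (SD, n = 5 each). TGF-β1 alone gave 46.5 CPM and BAY alone 0.304 CPM, and the combined change exceeded their sum by 2.21 (interaction adjusted p = 0.000137).

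CH25H, cholesterol 25-hydroxylase, rose from 0.0399 ± 0.0216 to 44.2 ± 13.1 CPM. Its combined values of 30.7 and 30.0 in subset 1 and 52.9, 58.3 and 49.0 in subset 2 show the split between subsets, and its log2 change was 10.08, with 9.27 in subset 1 and 10.95 in subset 2 alone. CHRNA9, the α9 subunit of nicotinic receptors, had 7 counts in all solvent libraries and 6221 with both agents, a ratio of 845.9 per total count (95% interval for counting error 410.3 to 2105). Without solvent replicate 2 the fitted log2 change of CHRNA9 moved from 9.74 to 10.55. CGB8, a chorionic gonadotropin β gene with near-identical neighbours between which reads can be split, had 4 counts against 14491. In CGB8 the addition of BAY to TGF-β1 gave 0.34 (adjusted p = 0.0576), which was called with the replicate number as a block (0.33, adjusted p = 0.0334), and without solvent replicate 1 its log2 change moved from 11.70 to 14.56. LEFTY2, a secreted antagonist of nodal, went from 0.0727 to 28.5 CPM, close to the 31.1 CPM of TGF-β1 alone (difference -0.13, adjusted p = 0.566).

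Promoter windows of RefSeq (GRCh38.p14), from 250 bases before to 50 after the start, were searched on both strands for 4 short motifs. Of the 10 largest rises 6 had a window, as did all 10 largest falls. The AP-1 letters TGANTCA, which read the same on either strand, stood in 7.71% of 35116 windows, and among the rises in 2, IL11 and MMP10. The cyclic AMP response core TGACG stood in 24.6% of all windows and in 2 of the rises, CH25H and KANK4. Neither motif stood in a window of the 10 falls. The SMAD letters CAGAC (45.3% of all windows) were in 3 of 6 rises and 4 of 10 falls, and the TEAD letters CATTCC (14.0%) in 0 of 6 and 1 of 10. A match is a run of letters and not a shown binding site. The 250 bases before the start are printed for the 4 rises with an AP-1 or TGACG match and for the largest fall, with the match in capitals. IL11 is at chr19:55370464-55370713 on the minus strand, with its match starting 96 bases before the start. MMP10 is at chr11:102780629-102780878 on the minus strand, with its match 67 bases before the start. CH25H is at chr10:89207318-89207567 and KANK4 at chr1:62319435-62319684, both on the minus strand, with TGACG matches 239 and 21 bases before the start. NMRK2 is at chr19:3933339-3933588 on the plus strand and held none of the 4 motifs.
IL11: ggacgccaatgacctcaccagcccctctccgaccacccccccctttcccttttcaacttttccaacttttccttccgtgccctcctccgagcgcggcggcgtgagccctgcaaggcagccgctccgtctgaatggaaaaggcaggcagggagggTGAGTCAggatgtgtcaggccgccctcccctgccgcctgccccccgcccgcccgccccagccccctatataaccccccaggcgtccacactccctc
MMP10: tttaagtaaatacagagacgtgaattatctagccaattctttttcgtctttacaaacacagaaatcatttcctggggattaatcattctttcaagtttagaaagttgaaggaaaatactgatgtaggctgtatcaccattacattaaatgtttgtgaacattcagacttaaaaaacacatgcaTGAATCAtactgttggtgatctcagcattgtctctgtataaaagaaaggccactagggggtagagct
CH25H: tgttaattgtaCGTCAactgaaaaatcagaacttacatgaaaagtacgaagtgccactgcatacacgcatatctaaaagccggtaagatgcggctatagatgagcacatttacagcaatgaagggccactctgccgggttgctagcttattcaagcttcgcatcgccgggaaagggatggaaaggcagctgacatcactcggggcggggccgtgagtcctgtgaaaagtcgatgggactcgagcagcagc
KANK4: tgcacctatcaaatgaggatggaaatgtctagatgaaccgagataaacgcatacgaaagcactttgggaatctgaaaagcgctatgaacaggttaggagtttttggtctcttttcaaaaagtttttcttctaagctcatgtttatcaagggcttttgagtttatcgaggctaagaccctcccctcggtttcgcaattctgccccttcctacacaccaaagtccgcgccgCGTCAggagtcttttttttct
NMRK2: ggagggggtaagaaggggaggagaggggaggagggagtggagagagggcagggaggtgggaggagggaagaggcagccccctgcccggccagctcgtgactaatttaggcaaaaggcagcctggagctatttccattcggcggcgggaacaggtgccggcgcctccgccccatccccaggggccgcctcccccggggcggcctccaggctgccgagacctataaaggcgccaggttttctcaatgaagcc

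The 10 largest falls were NMRK2, LGALS2, MAL, TNFRSF14-AS1, SOWAHB, RAB19, PTPRZ1, BCO1, UBD and ARHGEF38. NMRK2, a nicotinamide riboside kinase that feeds NAD synthesis, fell from 26.5, 26.4, 28.97, 33.5 and 26.4 CPM with solvent to 0.265, 0.288, 0.304, 0.277 and 0.343 CPM with both agents. The combined values were also below every library of TGF-β1 alone (0.586 to 1.12 CPM) and of BAY alone (5.66 to 6.83 CPM). The log2 change was -6.58 ± 0.16 (SE, adjusted p = 9.9e-17).

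MAL, a membrane protein of apical transport in epithelia, fell from 5.49 ± 1.19 to 0.0974 ± 0.0235 CPM. PTPRZ1, a receptor phosphatase, fell from 8.99 ± 0.578 to 0.303 ± 0.0929 CPM, with -2.92 for TGF-β1 alone, -1.88 for BAY alone and -4.88 for both on the log2 scale. Its interaction was near 0 (-0.08, adjusted p = 0.844). LGALS2, galectin 2, fell from 18.4 to 0.291 CPM, and BAY made no called difference to TGF-β1 there (-0.70, adjusted p = 0.207).

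In BCO1, which encodes a carotene-cleaving oxygenase, and ARHGEF38, an exchange factor gene for small GTPases, BAY alone raised the level, from 7.24 to 12.8 CPM and from 9.17 to 22.9 CPM. With both agents BCO1 stood at 0.243 CPM and ARHGEF38 at 0.352 CPM. Their interactions were -1.49 (adjusted p = 0.00203) and -1.27 (adjusted p = 0.00376). UBD, a ubiquitin-like protein induced by cytokines, fell from 10.5 to 0.360 CPM (log2 -4.87, and -5.93 in subset 1 alone), in a gene that shares exon sequence with GABBR1. TNFRSF14-AS1 lies antisense to TNFRSF14, so its value is uncertain. Its call was lost in subset 1 alone (adjusted p = 0.0711), and its change of -5.42 became -6.34 without combined replicate 4. Exons of RAB19 and ARHGEF38 also overlap a gene of the opposite strand, SLC37A3 and INTS12.

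**Figure D2:**
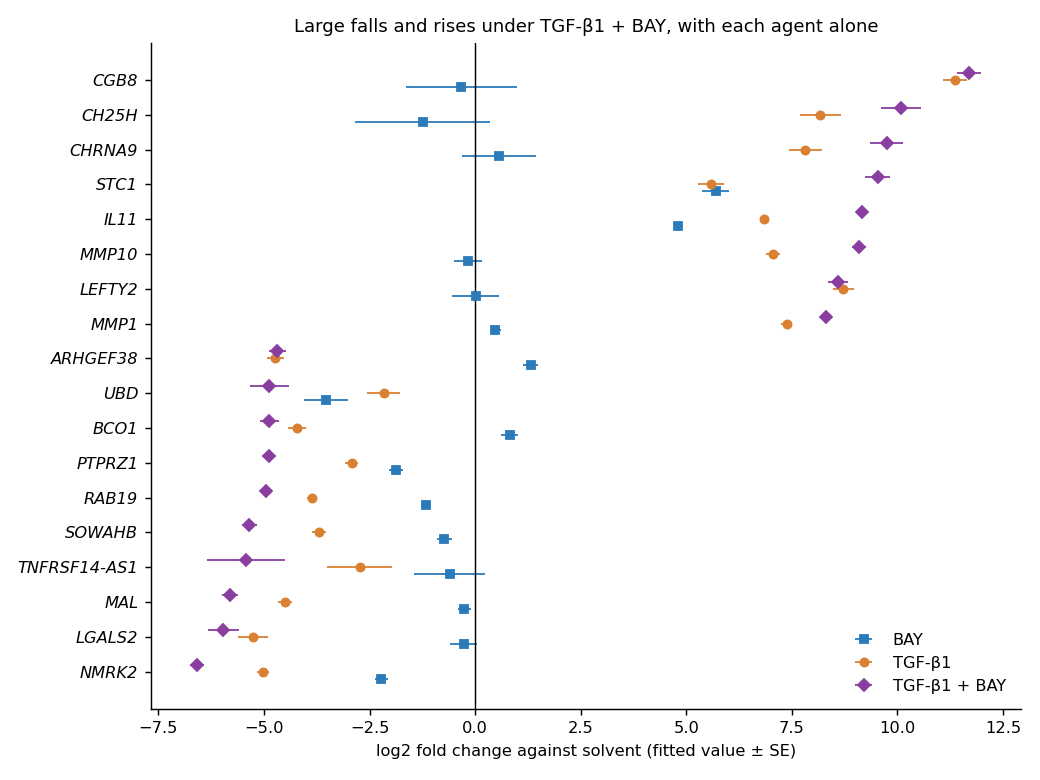
Fitted log2 fold change against solvent (± SE) of large falls and rises with both agents, beside TGF-β1 alone and BAY alone, which share the solvent libraries. KANK4 is left out because solvent libraries held no count of it, and in 7 of the 8 rises shown the combined value lay right of both single agents, LEFTY2 being the exception.

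The TGF-β pathway itself was changed at the level of ligands, receptors and inhibitors. Of 24 ligand, receptor and latency genes 16 rose and 5 fell, 8 with library totals, with a median log2 change of 0.47. TGFB1, the ligand's own gene, rose from 116 ± 5.76 to 608 ± 46.4 CPM (log2 2.39), and TGFB2 rose by 1.10. LTBP2 and LTBP1, which hold latent TGF-β in the matrix, rose by 3.35 and 1.97. TGFBR1, the type I receptor, rose by 0.74, TGFBR2 had -0.09 and was not called, and SMAD3 fell by 0.83. ITGB8, an integrin subunit that activates latent TGF-β, fell from 318 to 36.3 CPM (log2 -3.13), close to the 33.3 CPM of TGF-β1 alone. The feedback inhibitors SMAD7 and SKIL rose by 2.12 and 2.28.

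Of 26 TGF-β and SMAD target genes 22 rose and 2 fell, with a median of 2.04, beside 2.02 for TGF-β1 alone and -0.51 for BAY alone. TGFBI, a secreted matrix protein, went from 280.9, 262.8, 231.4, 228.8 and 269.8 CPM to 9446, 9648, 10060, 10140 and 9435 CPM. These groups did not overlap, and the combined libraries were also above every library of TGF-β1 alone (6644 to 7688 CPM). The change was 5.26 ± 0.07 (SE, adjusted p = 3.14e-20), and the interaction was 0.68 (adjusted p = 2.13e-05). PMEPA1, an inhibitor of SMAD signalling, rose from 48.1 to 1141 CPM. The 2 members that fell were CCN2, connective tissue growth factor (-2.15, adjusted p = 0.002), and BAMBI, a decoy receptor (-0.49). With BAY added to TGF-β1, 8 of the 26 were higher and 9 lower, against 13.9% and 15.6% of all genes in that comparison.

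Matrix genes were mostly higher. Of 27 collagens and matrix glycoproteins 20 rose and 7 fell, with a median of 1.03 (TGF-β1 alone 0.94, BAY alone -0.15). Fibronectin, FN1, rose from 5030 ± 144.6 to 19570 ± 2206 CPM, against 19760 CPM with TGF-β1 alone. COL1A1 had 36.0, 35.9, 39.1, 38.9 and 34.2 CPM with solvent and 204, 206, 186, 207 and 198 CPM with both agents. Its groups were well apart, and its combined mean of 200.1 CPM was slightly but detectably below the 224 CPM of TGF-β1 alone (-0.17, adjusted p = 0.00225). COL7A1, the anchoring fibril collagen, rose from 319.3 to 1855 CPM and was higher than with TGF-β1 alone (1169 CPM). COL6A3 and COL5A1 rose by 3.60 and 3.15. COL12A1 fell by 1.67, COL4A4 by 1.10 and the laminin gene LAMA3 by 0.80.

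Of 32 matrix proteases, inhibitors and crosslinking enzymes 26 rose and 5 fell, with a median of 1.29. MMP13, collagenase 3, rose from 1.87 to 163 CPM and was lower than with TGF-β1 alone (284 CPM, difference -0.81, adjusted p = 0.0025). This is opposite to MMP1 and MMP10, which were higher than with TGF-β1 alone. MMP2, gelatinase A, rose from 0.145 to 4.36 CPM and LOX, lysyl oxidase, from 11.3 to 191 CPM. P4HA3, a collagen prolyl hydroxylase subunit, rose by 5.12 and stood at 15.2 CPM, above the 5.05 CPM of TGF-β1 alone. PLAU, the urokinase gene, fell from 574 ± 13.5 to 76.0 ± 20.1 CPM (log2 -2.92), below both TGF-β1 alone (148 CPM) and BAY alone (194 CPM).

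Epithelial junction genes were mostly lower, with 22 of 27 lower, 3 higher and a median of -1.90. OCLN, occludin of tight junctions, was 23.5, 23.8, 28.4, 27.9 and 25.01 CPM with solvent and 2.08, 2.30, 2.44, 1.95 and 3.26 CPM with both agents. CLDN3, a claudin, fell from 17.8 to 1.39 CPM, and GJB1, a connexin, from 5.02 to 0.197 CPM. CDH1, E-cadherin, fell from 29.5 ± 0.456 to 6.44 ± 0.506 CPM, and its combined level was above the 4.01 CPM of TGF-β1 alone (0.68, adjusted p = 6.01e-08). In 15 of the 27 genes BAY added to TGF-β1 gave a lower level (15.6% of all genes) and in 4 a higher level (13.9% of all genes). The 3 members that rose were DSP, desmoplakin of desmosomes (2.15), GJA1, connexin 43 (1.13), and CDH6, a cadherin of the proximal tubule (0.65).

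Of 20 mesenchymal and contractile genes 16 rose and 2 fell, with a median of 0.78, beside 0.93 for TGF-β1 alone and -0.49 for BAY alone. SNAI1, a repressor of E-cadherin, had 8.47, 8.01, 4.67, 4.47 and 7.81 CPM with solvent and 142, 146, 109, 115 and 112 CPM with both agents. The subsets are visible in both groups, and the change of 4.22 ± 0.17 (SE) was above TGF-β1 alone by 0.79 (adjusted p = 0.000464). VIM, vimentin, rose from 415.8 to 1933 CPM and CNN1, calponin, from 1.17 to 10.7 CPM. TAGLN, transgelin, rose from 2.61 to 6.79 CPM, well below the 18.4 CPM of TGF-β1 alone (difference -1.44, adjusted p = 6.65e-08), whereas ACTA2, smooth muscle actin, stood at 3.53 CPM against 1.67 CPM (1.08, adjusted p = 0.000128). With BAY added to TGF-β1, 9 of the 20 were lower and 3 higher, against 15.6% and 13.9% of all genes. The fibroblast marker sum was higher along with these lists, and COL1A1 made up most of it with both agents. Of its 5 tested members 3 rose and 2 fell, and LUM, the most abundant with solvent, fell from 82.5 to 59.6 CPM. In bulk RNA, fewer cells of a type and less RNA per cell cannot be told apart.

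Transporter genes of the proximal tubule were mostly lower, whereas markers of this segment moved both ways. Of 15 tested proximal tubule markers 8 fell and 5 rose. The sum of all 16 was 2246 to 2674 CPM with solvent and 2667 to 3268 CPM with both agents, with CDH6 and KRT8 the most abundant. Of 24 proximal tubule transporters and endocytic receptors 17 fell and 4 rose, with a median of -1.58. SLC34A1, the sodium phosphate carrier, fell from 2.67 ± 0.253 to 0.217 ± 0.0382 CPM. SLC3A1, a subunit of the cystine carrier, fell from 3.56 to 0.171 CPM. The 4 that rose were AQP1, CUBN, ALPL and SLC34A3, all at low levels. AQP1 had 11 counts in all solvent libraries and 492 with both agents, a ratio of 42.57 per total count (95% interval for counting error 23.59 to 85.85). LRP2 fell by 2.76 on 8 counts against 62, with no call in subset 1 alone (adjusted p = 0.111), and its change was -3.35 without combined replicate 2. Markers of other nephron cells were lower along with this list, and their part in it was not tested. The sum of 9 distal nephron markers, most of it SCNN1A with solvent, was 36.88 to 39.33 CPM with solvent and 6.41 to 7.601 CPM with both agents, with UMOD, SLC12A1, AQP2, SCNN1B, CALB1 and KCNJ1 below 0.1 CPM in both. The sum of 7 podocyte markers was 165.5 to 179.8 CPM and 91.56 to 132.7 CPM, with NPHS1 and WT1 below 0.1 CPM in both.

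Among 18 transcription factors of kidney identity 10 fell and 4 rose. TFCP2L1, a regulator of tubule epithelium, fell from 1.53 to 0.0351 CPM and PAX2 from 9.15 to 1.65 CPM. LHX1 rose from 52.5 to 125 CPM and FOXC2 from 0.0366 to 0.893 CPM. Of 21 genes of tubular injury and repair 12 fell and 8 rose. HAVCR1, the kidney injury molecule KIM-1, fell from 458 ± 20.3 to 104 ± 2.52 CPM, and PROM1 from 0.665 to 0.0217 CPM. CD44, a hyaluronan receptor, rose from 67.0 to 608 CPM.

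**Figure D3:**
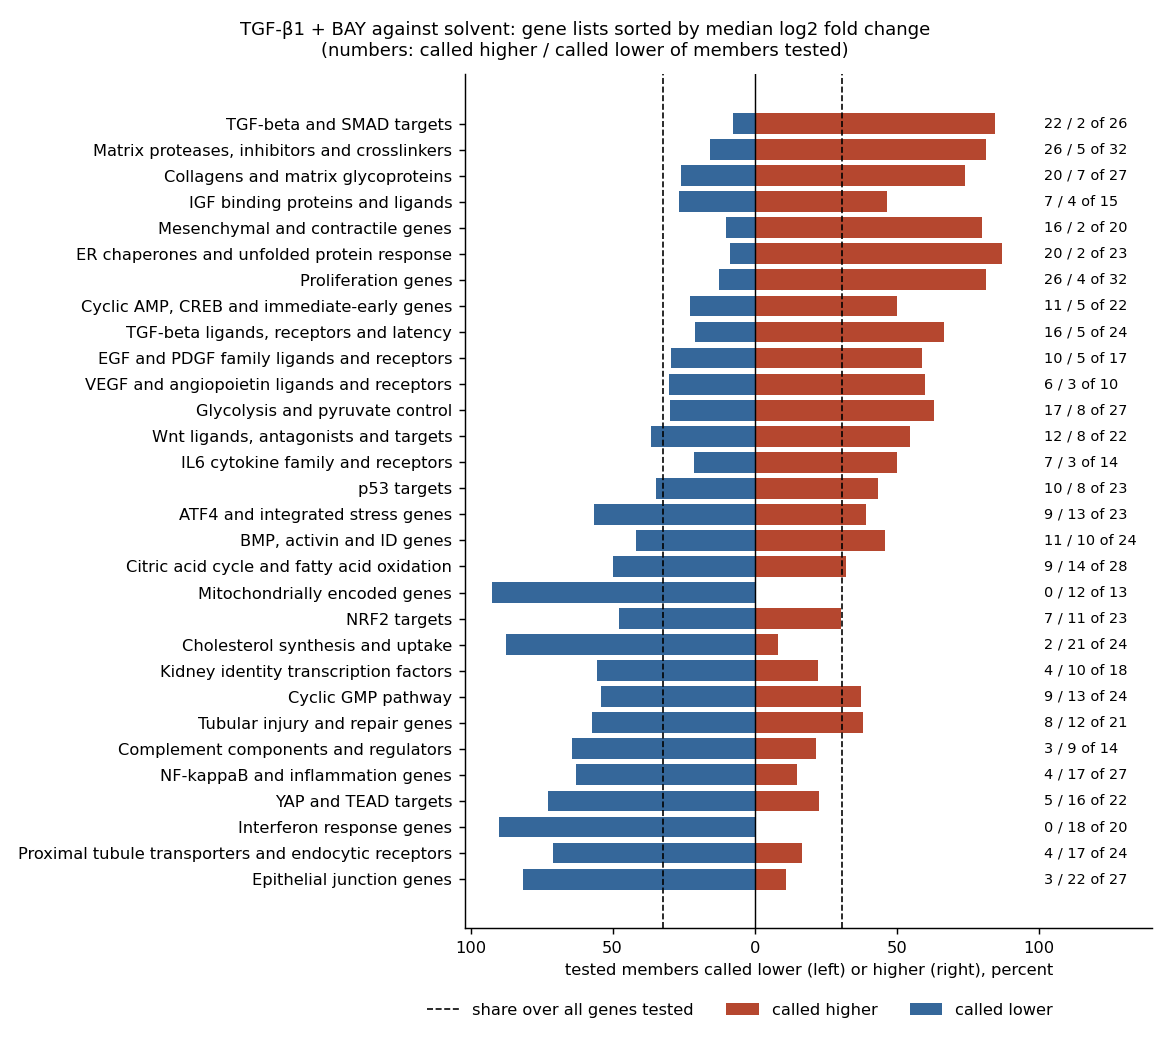
Share of the tested members of 30 gene lists, the 6 cell type marker lists left out, called higher (right) or lower (left) with both agents than with solvent, sorted by the median log2 fold change of the list, with dashed lines at the shares over all genes, 30.6% and 32.3%. TGF-β and SMAD targets stand at the top with 22 of 26 higher, and epithelial junction genes at the bottom with 22 of 27 lower.

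The enzyme that BAY acts on is a dimer of an α and a β subunit. GUCY1A1, the α1 subunit, was at 32.1, 32.3, 32.9, 32.6 and 30.6 CPM with solvent and 8.15, 8.69, 7.77, 8.60 and 7.55 CPM with both agents. The fall was -1.98 ± 0.05 (SE, adjusted p = 1.33e-16), and the level was also below that of TGF-β1 alone (12.4 CPM, difference -0.60, adjusted p = 3.49e-08). GUCY1B1, the β1 subunit, fell from 72.5 ± 2.33 to 56.0 ± 1.59 CPM (-0.37), and GUCY1A2, the α2 subunit, rose from 10.9 ± 0.525 to 23.4 ± 2.45 CPM (1.10). In GUCY1B1 and GUCY1A2 BAY made no called difference to TGF-β1 (adjusted p = 0.0651 and 0.905).

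NPR1, the receptor guanylate cyclase for atrial natriuretic peptide, had 294, 295, 275, 270 and 295 CPM with solvent and 19.9, 20.8, 17.6, 18.6 and 21.1 CPM with both agents. Its change was -3.87 ± 0.09 (SE, adjusted p = 2.43e-16), the largest in size among the 24 genes of this pathway that were tested. TGF-β1 alone gave 37.3 CPM and BAY alone 208 CPM. PRKG1, cyclic GMP-dependent protein kinase 1, fell from 0.528 ± 0.113 to 0.161 ± 0.052 CPM (-1.70), a low level in every group. PDE5A, which breaks down cyclic GMP, rose from 3.02 ± 0.0754 to 4.47 ± 0.636 CPM (0.57), and BAY alone lowered it to 1.93 CPM. PDE3A, a phosphodiesterase that cyclic GMP inhibits, rose from 1.03 to 3.00 CPM. In all, 13 of the 24 fell and 9 rose, with a median of -0.52.

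**Figure D4:**
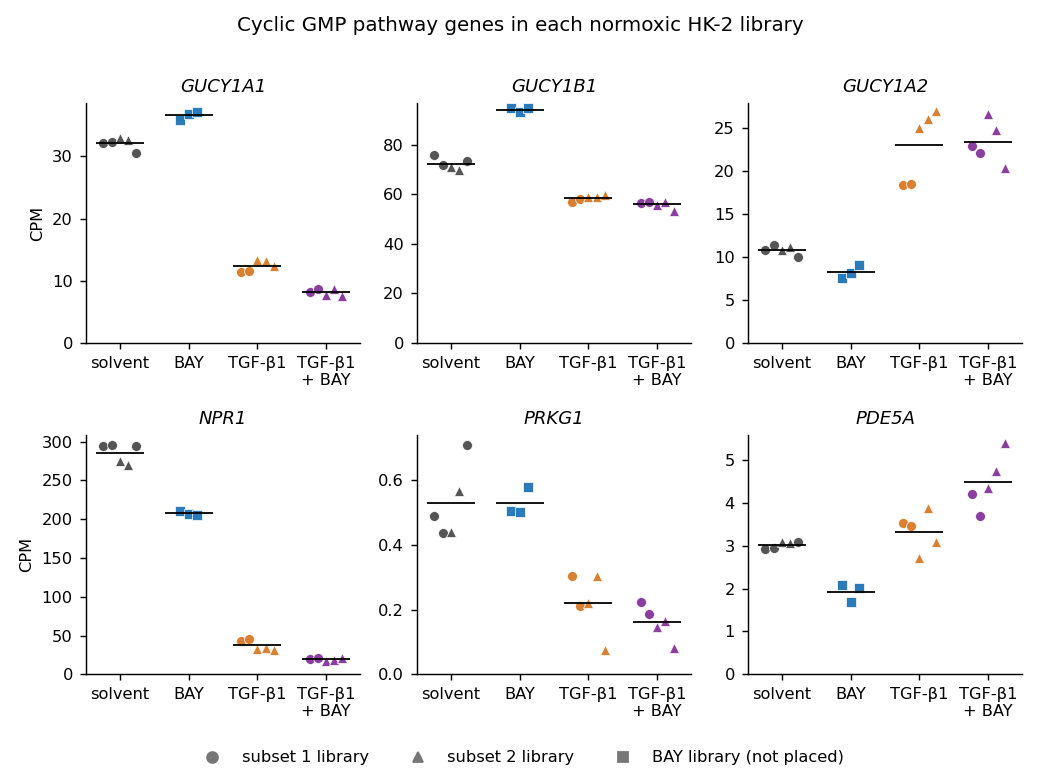
Level of 6 genes of the cyclic GMP pathway in each normoxic library (CPM, linear axis from 0), with group means as black lines and marker shapes for the subsets. GUCY1A1 and NPR1 were lowest with both agents, GUCY1A2 was higher in both groups with TGF-β1, and GUCY1B1 was highest with BAY alone.

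Targets of cyclic AMP, CREB and immediate-early signals moved both ways, with 11 of 22 higher, 5 lower and 6 not called. The 5 lower became 3 without solvent replicate 1 and without combined replicate 3, 4 or 5, each left out alone, and 3 with limma voom. FOSB, an AP-1 subunit, rose from 3.74 ± 1.81 to 81.7 ± 27.5 CPM (log2 4.45, and 5.10 in subset 2 alone), and BAY on TGF-β1 raised it by 2.01 (adjusted p = 8.54e-05). CREM, a CREB-related factor, rose from 10.6 ± 0.819 to 38.1 ± 2.08 CPM, against 14.4 CPM with TGF-β1 alone and 31.7 CPM with BAY alone. NR4A3, an orphan nuclear receptor, rose by 2.71 and DUSP1, a phosphatase of MAP kinases, by 1.70. With BAY added to TGF-β1, 10 of the 22 were higher and 1 lower, against 13.9% and 15.6% of all genes. EGR1 fell by 2.52 (adjusted p = 0.0186) on widely spread solvent libraries (82.6 ± 69.2 CPM).

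Of 22 YAP and TEAD targets 16 fell and 5 rose, with a median of -0.89, beside -0.52 for TGF-β1 alone and -0.92 for BAY alone. ANKRD1, a nuclear and sarcomeric ankyrin repeat protein, had 15.2, 14.6, 17.7, 17.8 and 15.2 CPM with solvent and 0.881, 0.978, 0.620, 0.853 and 0.921 CPM with both agents. The change was -4.24 ± 0.11 (SE, adjusted p = 3.64e-16). BAY alone gave a lower level still, 0.481 CPM, and the combined change was 2.14 above the sum of the single ones (interaction adjusted p = 6.43e-08). CCN1, a matricellular protein, had 534, 508, 247, 240 and 507 CPM with solvent and 63.4, 61.6, 17.9, 18.4 and 21.2 CPM with both agents. Within each group the subset 1 libraries of CCN1 were the higher ones, and the groups still did not overlap. NT5E and IGFBP3 rose, by 5.22 and 3.04.

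IGFBP3, which binds insulin-like growth factors, followed BAY. It was 64.0 ± 2.74 CPM with solvent, 50.4 CPM with TGF-β1 alone, 589 CPM with BAY alone and 527 ± 87.6 CPM with both, and its interaction was 0.18 (adjusted p = 0.412). PAPPA, a protease that cuts binding proteins of this family, rose from 99.1 to 370 CPM. Of 15 genes of this family 7 rose and 4 fell. IGFBP5 had 2 counts with solvent against 83 with both agents, a ratio of 39.5 per total count (95% interval for counting error 10.6 to 331.6), with log2 values of 7.22 and 3.92 in subsets 1 and 2.

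Growth factor genes rose more often than they fell. Of 17 EGF and PDGF family genes 10 rose and 5 fell. AREG, amphiregulin, an EGF receptor ligand, rose from 76.6 ± 6.14 to 509 ± 14.8 CPM, with 214 CPM for TGF-β1 alone and 207 CPM for BAY alone, and an interaction of -0.18 (adjusted p = 0.0873). EGFR itself rose by 1.52 and PDGFRB by 3.44, while ERBB3 fell by 2.57. INHBA, the activin A subunit, was 9.18, 9.12, 7.15, 7.00 and 8.40 CPM with solvent and 257, 243, 260, 246 and 238 CPM with both agents. No library of TGF-β1 alone (mean 113 CPM) reached the combined range, and the interaction was 1.61 (adjusted p = 1.31e-09).

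BMP4, a ligand of the BMP family, fell by 3.12. Over 24 BMP, activin and ID genes 11 rose and 10 fell. In the Wnt list 12 of 22 rose and 8 fell. WNT9A and WNT5B rose by 4.06 and 4.09, whereas WNT10A fell by 4.10 and DKK1, a secreted Wnt antagonist, fell by 3.55. Among 10 VEGF and angiopoietin family genes 6 rose and 3 fell, with ANGPTL4 rising from 0.199 to 26.6 ± 14.6 CPM and NRP2 from 37.6 to 416 CPM.

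In the IL-6 family list 7 of 14 rose and 3 fell. Besides IL11, LIF rose by 2.38 and the receptor subunit OSMR by 1.62, whereas IL6R fell by 2.71. IL6 had 3.47 CPM with solvent and 2.07 CPM with both agents and was not called. The list's median of 0.13 became -0.03 with library totals, so no direction is given for it.

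Inflammation genes were mostly lower. Of 27 tested members of the NF-κB list 17 were lower and 4 higher, with a median of -0.75 (TGF-β1 alone -0.40, BAY alone -1.17). BIRC3, an inhibitor of apoptosis that NF-κB induces, fell from 65.7 ± 3.11 to 6.40 ± 1.09 CPM, with 19.1 CPM for TGF-β1 alone and 24.2 CPM for BAY alone. CSF1, the macrophage growth factor, fell from 79.3 to 13.7 CPM and CX3CL1, a membrane-bound chemokine, from 93.3 to 12.0 CPM. CXCL8, interleukin 8, rose by 0.59 although BAY alone lowered it from 89.2 to 22.7 CPM, with an interaction of 2.27 (adjusted p = 4.1e-11). With BAY added to TGF-β1, 14 of the 27 were lower and 4 higher, against 15.6% and 13.9% of all genes.

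Of 20 interferon response genes 18 fell, and ISG15 and IRF9 were not called. IFIT2 fell from 69.7 ± 1.45 to 10.1 ± 0.847 CPM and IFIH1, a sensor of double-stranded RNA, from 18.0 to 2.83 CPM. With BAY added to TGF-β1, 10 of the 20 were lower, against 15.6% of all genes. CXCL10 fell on 8 counts against 72, and its log2 change of -2.99 was -3.62 without combined replicate 3. In the complement list 9 of 14 fell and 3 rose. CD55 and CD59, which protect cells from complement, rose by 1.03 and 1.09. C4A, whose reads can be split with its near-identical copy C4B, was not called in subset 1 alone (adjusted p = 0.122), and its change of -5.05 was -5.72 without combined replicate 2. The immune marker sum fell along with these lists.

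Cholesterol synthesis and uptake genes were lower in 21 of 24 and higher in 2, by small amounts, with a median of -0.40. The median was near 0 with TGF-β1 alone (-0.00) and -0.29 with BAY alone. HMGCS1, an early enzyme of the pathway, fell from 334 ± 9.17 to 103 ± 5.26 CPM and TM7SF2 from 19.9 to 2.75 CPM. STARD4, a sterol carrier, went the other way and rose by 1.22. Against TGF-β1 alone, 21 of the 24 were lower (15.6% of all genes) and 1 higher (13.9% of all genes).

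Of 27 glycolysis and pyruvate genes 17 rose and 8 fell, with a median of 0.34 (TGF-β1 alone 0.47, BAY alone -0.54). SLC2A1, a glucose carrier, rose from 173 to 379 CPM, and the hexokinase gene HK2 fell from 63.6 to 24.0 CPM. In the list of the citric acid cycle and fatty acid oxidation 14 of 28 fell and 9 rose, 5 with library totals, and PPARGC1A, a coactivator of mitochondrial genes, fell from 70.2 to 14.7 CPM. Among 13 genes of the mitochondrial genome 12 fell and MT-ND6 was not called, and the median was -0.20. For MT-ND1 (-0.45) the call was lost without combined replicate 5 (-0.37, adjusted p = 0.0558).

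Of 32 proliferation genes 26 rose and 4 fell, with a median of 0.58, close to TGF-β1 alone (0.54). CDK1 rose from 72.6 ± 2.43 to 156 ± 15.4 CPM and the cyclin gene CCNE2 from 22.5 to 50.1 CPM. The 4 that fell were CDT1, MCM2, MCM5 and MCM6, by at most 0.19. Of 23 ER chaperone and unfolded protein response genes 20 rose, and HSPA5, the chaperone BiP, rose from 653.6 to 1117 CPM, below the 1470 CPM of TGF-β1 alone. The 2 that fell were ERN1 and DNAJB9. In the ATF4 list 13 of 23 fell and 9 rose. PSAT1, of serine synthesis, fell by 1.72, and SLC7A11, the cystine carrier, rose from 8.49 ± 0.568 to 54.6 ± 4.75 CPM, against 19.3 CPM with TGF-β1 alone and 4.19 CPM with BAY alone (interaction 2.51, adjusted p = 6.44e-11). NUPR1 fell on 4 counts against 88, and its log2 change of -4.19 became -5.49 without combined replicate 1. Of 23 NRF2 targets 11 fell and 7 rose. Of 23 p53 targets 10 rose and 8 fell, and the median of 0.01 became -0.14 with library totals, so no direction is given for it.

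A gene was counted as returned to the solvent level when TGF-β1 alone changed it at least 2-fold, BAY added to TGF-β1 changed it in the opposite direction, and the 95% interval of the combined group against solvent lay within -0.5 to 0.5 on the log2 scale. TGF-β1 alone called 3674 genes at least 2-fold (17.0%), and 14 of them met this rule, 0.381% of the 3674. The rule uses the TGF-β1 contrast, and its level of 2-fold and its interval decide the count, so the 14 are described and not tested. The last gene inside the interval was CFAP144, whose interval reached -0.50, and the first outside was CRB2 (-0.52). With an interval of 0.25 only 1 gene remained, and with an interval of 1 there were 145.

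TGF-β1 raised 8 of the 14, NES, JCAD, IL1RAP, MARCHF3, LYPD1, DPP4-DT, LINC01611 and a gene known by its ID only, ENSG00000283979. IL1RAP, the accessory receptor of interleukin 1, was 27.9, 26.4, 23.5, 22.9 and 25.6 CPM with solvent, 60.9, 59.7, 57.8, 60.3 and 59.3 CPM with TGF-β1 alone, and 30.7, 29.9, 26.4, 24.1 and 23.9 CPM with both. The solvent and combined groups overlapped, and both were far below TGF-β1 alone. Within each subset, however, every combined library lay above every solvent library. The difference from solvent was 0.10 (95% interval -0.05 to 0.24), and it was -0.06 with library totals. It was called in subset 1 alone (0.22, adjusted p = 0.000228) and with the subset as a block (0.12, adjusted p = 0.0241).

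JCAD, a junction protein, stood at 9.66, 20.4 and 10.8 CPM with solvent, TGF-β1 alone and both, and MARCHF3, a ubiquitin ligase, at 4.73, 11.3 and 5.33 CPM. NES, the intermediate filament nestin, had means of 132.6, 275 and 154.5 CPM in the same order. NES, LYPD1 and ENSG00000283979 were still called higher than solvent (0.22, 0.29 and 0.25), inside the interval of the rule, and with library totals NES had 0.07 (adjusted p = 0.0721). JCAD (0.16, adjusted p = 0.0998) became called without solvent replicate 2 (0.22, adjusted p = 0.0239), with the replicate block (adjusted p = 0.0454) and with the subset as a block (adjusted p = 0.00228). MARCHF3 (0.17, adjusted p = 0.19) became called in subset 1 alone (0.33, adjusted p = 0.00192) and with the subset as a block (0.22, adjusted p = 0.00749). In all 8 the BAY-alone value lay below solvent, from -0.26 in ENSG00000283979 to -1.66 in JCAD.

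TGF-β1 lowered the other 6, SEMA3F-AS1, KCNK15, TMEM169, PLEKHA2, CFAP144 and SRGAP3. TMEM169, a membrane protein, was 9.98, 10.4, 10.2, 10.2 and 8.78 CPM with solvent and 9.43, 9.40, 8.45, 8.95 and 8.24 CPM with both, against 3.71 to 4.34 CPM with TGF-β1 alone. The groups overlapped only through solvent replicate 5. Its small difference from solvent (-0.16, adjusted p = 0.0307) lost its call when solvent replicate 1, 2, 3 or 4 or combined replicate 3 or 5 was left out (-0.12 to -0.15, adjusted p = 0.0514 to 0.107), and it was -0.01 in subset 1 alone. PLEKHA2, an adaptor that binds phosphoinositides, stood at 56.2, 26.3 and 48.8 CPM with solvent, TGF-β1 alone and both. Its difference from solvent (-0.20, adjusted p = 0.0843) became called without solvent replicate 3 (-0.25) or without combined replicate 1 or 2 (-0.27 in each). It was also called with the replicate block (adjusted p = 0.0098) and with the subset as a block (adjusted p = 0.000741). The same held in subset 2 alone (-0.24, adjusted p = 6.59e-05) and with library totals (-0.36, adjusted p = 0.000878). KCNK15, a potassium channel gene, stood at 2.46, 0.935 and 2.84 CPM. SEMA3F-AS1 is antisense to SEMA3F and its value is uncertain for that reason. In all 6 the BAY-alone value lay above solvent, from 0.70 in SRGAP3 to 2.04 in SEMA3F-AS1.

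In 9 genes, 0.245% of the 3674, the combined group was called on the far side of solvent from TGF-β1 alone. They are PDK4, DHRS9, CHL1, PDE3A, IGFBP1, TNFRSF1B, LINC02742, RGS4 and ENSG00000261770. CHL1, IGFBP1 and LINC02742 were below 0.1 CPM in every library of TGF-β1 alone, so their fall with TGF-β1 rests on few counts. PDK4, the kinase that shuts off pyruvate dehydrogenase, was 15.2, 14.9, 7.97, 7.88 and 16.5 CPM with solvent and 56.7, 55.0, 29.4, 30.9 and 28.1 CPM with both. TGF-β1 alone gave 1.95 CPM and BAY alone 202 CPM. The groups did not overlap, subset 1 was the higher one in each, and the difference from solvent was 1.68 ± 0.26 (SE, adjusted p = 2.95e-05).

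DHRS9, a retinol dehydrogenase, stood at 6.69 CPM with solvent, 2.60 with TGF-β1 alone, 28.2 with BAY alone and 10.6 with both. IGFBP1 and PDE3A followed the same order. TNFRSF1B, TNF receptor 2, differed from these, since BAY alone lowered it as TGF-β1 alone did (0.450 and 0.440 CPM against 1.23 CPM), yet with both it was 2.40 CPM, with an interaction of 3.89 (adjusted p = 6.51e-07). RGS4, a regulator of G protein signalling, was raised by TGF-β1 alone to 3.01 CPM and stood at 0.555 CPM with both, below the 0.807 CPM of solvent.

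**Figure D5:**
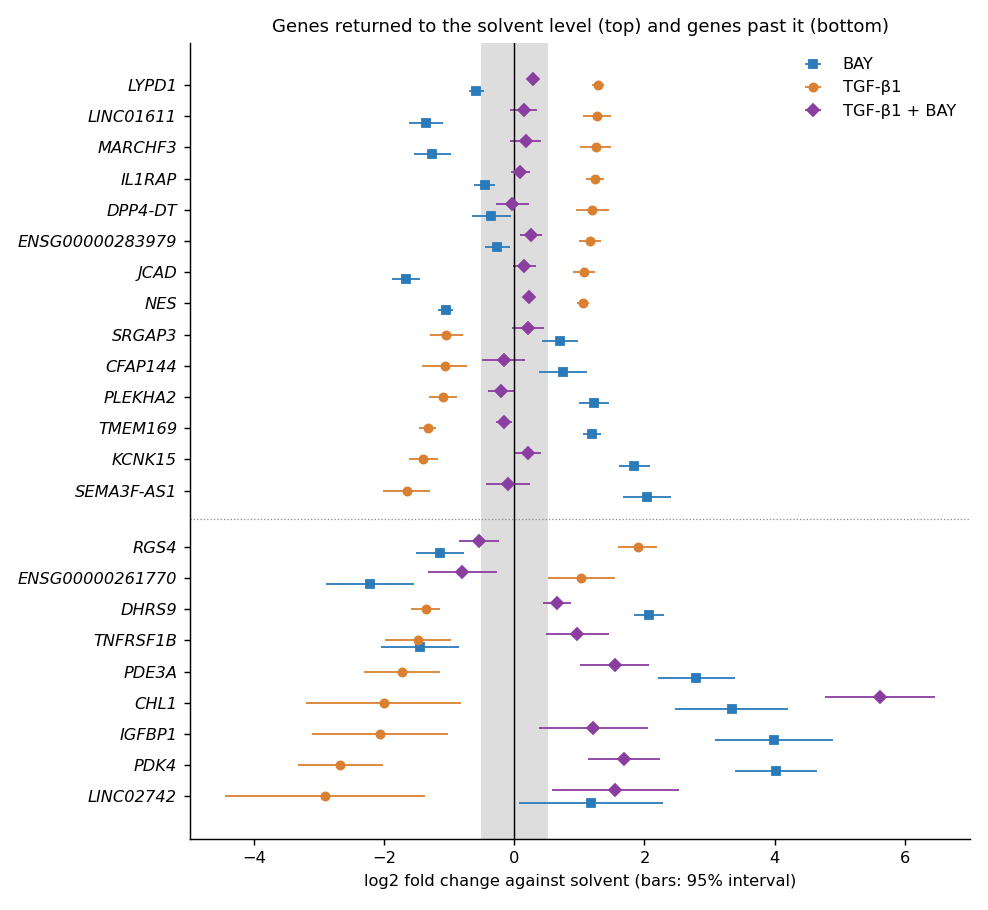
Log2 fold change against solvent with its 95% interval for the 14 genes returned to the solvent level (upper block) and the 9 genes past it (lower block), with BAY alone, TGF-β1 alone and both agents. The grey band marks -0.5 to 0.5, and the 14 combined intervals lie inside it because the rule chose them so.

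Whether the combined change equals the sum of the single changes on the log2 scale was tested as an interaction. It was called for 4487 genes (20.7%), 2956 with a combined value above the sum (13.7%) and 1531 below it (7.08%). The interaction uses the BAY-alone libraries and was not checked against the subsets, whose part in it was not tested. The 5 most negative values among genes that pass the level rule were in CACNA1H, P2RY6, IL11, AKAP12 and HS6ST1. CACNA1H, a T-type calcium channel, was 2.37 CPM with solvent, 16.5 with TGF-β1 alone, 39.3 with BAY alone and 33.0 with both. P2RY6, a receptor for uridine nucleotides, was raised by BAY alone from 11.6 to 72.2 CPM and stood at 18.5 CPM with both, where BAY made no called difference to TGF-β1 (0.07, adjusted p = 0.466). HS6ST1, a heparan sulphate sulphotransferase, stood at 49.4, 214 and 22.2 CPM with solvent, BAY alone and both. AKAP12, a scaffold for protein kinase A, was raised to 390 CPM by TGF-β1 alone and stood at 132 CPM with both, against 85.3 CPM with solvent and 129 CPM with BAY alone.

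The 5 most positive values included CHL1, CEMIP, KIF26B and ADCY8. In the last 3 BAY alone lowered the gene and both agents together raised it above solvent. ADCY8, an adenylate cyclase, was 3.04 CPM with solvent, 0.888 with BAY alone, 13.8 with TGF-β1 alone and 31.8 with both. KIF26B, a kinesin-like protein, was 9.41, 1.42, 38.4 and 53.9 CPM in that order, and CEMIP, which breaks down hyaluronan, was 0.521, 0.231, 1.35 and 5.73 CPM. In ADCY8, KIF26B and CEMIP BAY added to TGF-β1 raised the level, by 1.20, 0.49 and 2.08.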

How the data were processed

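Poly(A) RNA of HK-2 cultures was sequenced, and the authors deposited 1 table of estimated counts for 65180 gene IDs and 24 libraries. Per the submitters' processing notes, Salmon, DESeq2 and GRCh38 (hg38) were used; the sources used here do not give versions, annotation or strand setting. Of values above 0, 48.6% were not whole, and all were rounded. IDs without a symbol (6261, 4.36% of counts) were kept by ID. The 10 libraries held 87391989 to 105571250 counts, so the spread between libraries limits precision more than depth except for genes of few counts, where intervals and floors cover counting error only.

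The 18 normoxic libraries were fitted together with edgeR 4.0.16 (R 4.3.3), using TMM scaling, filterByExpr and the robust quasi-likelihood test. Unless another setting is named, p-values are from this test, two-sided, with Benjamini-Hochberg adjustment over 21639 genes. The 6 comparisons were each adjusted on their own, and a call is an adjusted p below 0.05. P-values given for a subset, a block, library totals or a left-out library are from separate fits of the same test, each adjusted over its own genes. Levels are TMM-scaled CPM and are compared within a gene only. Approximate SEs were derived from each fold change and its F statistic (log2 fold change over √F). The scripts were tested on simulated data. Positions are from GENCODE 29. By these positions, exons of several named genes overlap a gene of the opposite strand. Among them are ARHGEF38, RAB19, SLC3A1, SCNN1A, IFIT2, ITGB8, LYPD1, PRKG1 and HK2. With the strand setting not given, their values carry the limit named for the antisense genes.

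Groups follow the labels. The members and the 36 gene lists were chosen with earlier results of these data known. Named genes are IL11, MMP1 and CHL1, the 10 largest rises and 10 largest falls among genes whose groups did not overlap and reached 5 CPM in 1 of them, up to 3 called members with the largest change per list, 5 cyclic GMP genes, the returned genes and 5 genes of each sign of interaction. Further list members and genes past the solvent level are given as examples chosen after their values were seen. Between the combined group and TGF-β1 alone, deviations of same-numbered libraries correlated at 0.68, 0.68, 0.57, 0.48 and 0.38. Combined replicates 1, 3, 4 and 5 correlated best with TGF-β1 replicates 2, 5, 3 and 3, and only replicate 2 with its own number. Same-numbered libraries of these groups also share their subset, so the correlations do not show pairing by number. The reported fit has no block. Alternatives were other scalings, DESeq2 1.42.0, limma 3.58.1 (voom), no filter, fewer or more libraries, a replicate block, leaving out each library and, chosen after seeing the data, the subsets. Some genes that the rule names are not reported here.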

Additional observations from a re-analysis of the deposited data

Results flagged for a closer look

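Among 136 named genes, 407 groups of 5 libraries were tested for a library far from the others, and 13 were flagged. The rule's nominal rate is 1 in 20, but the tests share libraries and the split into 2 subsets can hide a single distant library. The count is therefore not read against chance. In solvent libraries these were PTPRZ1 (7.99 CPM), TMEM169 (8.78 CPM), CREB3L2 (32.4 CPM) and AQP1 (0.0332 CPM) in replicate 5, CD14 in replicate 3 (1.15 CPM) and CGB8 in replicate 1 (0.0390 CPM). With both agents they were CREB3L2 (77.7 CPM) and CREB3L3 (0.189 CPM) in replicate 5, CD14 in replicate 1 (0.828 CPM) and THY1 in replicate 3 (0.0338 CPM). With TGF-β1 alone they were TNFRSF14-AS1 (0.0 CPM) and OCLN (4.11 CPM) in replicate 2 and LRP2 in replicate 1 (0.0540 CPM).

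By the interaction test, which was not run within the subsets, the effect of BAY differed with and without TGF-β1 in 4487 genes. Among the named ones the interaction was 4.29 in CHL1, 3.25 in CEMIP, 3.22 in KIF26B and 2.98 in ADCY8, and it was -3.06 in CACNA1H, -2.57 in P2RY6, -2.46 in IL11, -2.15 in AKAP12 and -1.95 in HS6ST1.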

How the results depend on the processing

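The number of genes called between both agents and solvent was 12806 to 14445 over all alternatives and 13151 to 13312 when 1 library was left out (13609 as reported). DESeq2 called 13773. Same-numbered combined and solvent libraries correlated at 0.55, 0.53, 0.49, 0.51 and -0.25, so the numbers were not taken to pair these libraries, since number 5 goes the other way. Numbers 1 to 4 fall in the same subset in both groups and number 5 does not. The replicate block gave 14059 calls and moved the IL-6 family members lower from 3 to 5. Between the combination and TGF-β1 alone the replicate block gave 7231 calls (6386 as reported). In that comparison it moved the interferon response members lower from 10 to 13 and the NF-κB list members lower from 14 to 16.

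The count of returned genes was 12 to 16 when 1 library was left out. With library totals it was 18, of which 9 were among the 14 reported. It was 1 with an interval of 0.25 and 145 with an interval of 1, by construction of the rule. Subset 1 alone gave 20 genes, 11 of them shared with the 14, and subset 2 alone gave 21, 9 of them shared. IL1RAP reversed to -0.0579 with library totals. Over the named genes 2914 values kept direction and call, 14 lost and 16 gained a call. Fitted values moved by over 1.5 times in several genes, among them CHRNA9 (13.13 in subset 2 alone), CGB8 (10.85 and 14.63 in subsets 1 and 2), THY1 (-3.95, and -6.55 without combined replicate 3), TNFRSF14-AS1 (-7.92 with limma voom), KANK4 (12.74, and 10.76 with limma voom), CREB3L3 (2.93, and 4.77 in subset 2 alone), TFCP2L1 (-6.001 and -4.71) and PROM1 (-4.16 and -5.54).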
